A study of Mus musculus with 12 samples.

Results

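In mouse colon with chemically induced colitis, 8 genes of matrix-degrading proteases and of the plasminogen activator system were followed: Mmp3, Mmp10, Mmp2, Mmp9, Ctsk, Plau, Plaur and Plat. They were chosen by name, with earlier results of these data known, among the listed metalloproteinases, cathepsin K and genes of the plasminogen activator system. Further listed metalloproteinases are described as a separate list. The 8 genes belong to 912 features that the DSS and Control files list, of 991 features in all files. All 8 were higher in every DSS library than in every Control library, as were 77.4% of the 912 listed features. On the log2(FPKM + 1) scale the increase was largest for the stromelysins Mmp10 and Mmp3 and smallest for the plasminogen activators Plat and Plau.

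The DSS mice drank 2.5% dextran sulfate sodium (DSS), a polymer toxic to the colonic epithelium, for 5 days and then water for 5 days, over 3 cycles. The Control mice received distilled water. Each group has 3 RNA-seq libraries of colon. Further DSS mice received Banxia Xiexin Decoction, a multi-herb preparation, at 7.60 or 15.2 g/kg per day, but the files of those libraries list 8 and 95 features, with none of the 8 genes. The sources used here give no strain, age or sex. They do not say whether the libraries are of separate mice, so the p-values measure the spread of these libraries alone, and that spread may be technical. The free-text description conflicts with title and treatment label in a pair of libraries: for Control replicate 3 it speaks of DSS, and for DSS replicate 3 of the lower decoction dose. Titles set the groups here, and all 8 genes also passed the test without both libraries. So did most features, 425 higher and 77 lower of 576 tested, on a list of features that differ between these groups. Passing thus does not show which label is right.

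Matrix metalloproteinases are zinc enzymes that are secreted as inactive precursors and cut collagens, laminins, fibronectin and proteoglycans once their propeptide is removed. Urokinase and tissue plasminogen activator turn plasminogen into plasmin, which dissolves fibrin and can also remove such propeptides. In the inflamed gut these enzymes are known from wound edges, the connective tissue of the mucosa and infiltrating leukocytes, and tissue inhibitors of metalloproteinases and serpins hold them in check.

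Expression is given as FPKM, fragments scaled by gene length and library total, so levels can be set side by side between genes. The DSS libraries held about 15400000, 16600000 and 19200000 fragments and the Control libraries about 14400000, 16700000 and 16200000, judged from the spacing of low values. Changes are differences of mean log2(FPKM + 1), DSS minus Control, tested with limma and Benjamini-Hochberg adjustment over 576 features that reached 1 FPKM in at least 3 of all 12 libraries. All 8 genes passed at a threshold of 0.05, beside 79.2% of the 576 tested features that were higher in DSS, 20.0% that were lower and 99.1% that differed in either direction. In 77.4% of the 912 listed features the 3 DSS libraries lay above the 3 Control libraries without overlap, and in 95.2% the groups did not overlap in either direction. No listed feature differed by less than 1.87-fold between the group means. The list thus holds features that differ between these groups, and the 8 calls describe size and spread and are not independent evidence of a difference. The low-value filter was met by Mmp9 through the DSS libraries alone, and Mmp3 and Mmp10 had 2 Control libraries at 1 FPKM or more. Centring each library on the median of its listed features lowered the median change by 0.65 on the log2 scale and left 113 features higher and 118 lower, against 456 higher and 115 lower without it. Relative to that median Mmp10, Mmp3, Mmp2 and Ctsk still passed, and Mmp9, Plaur, Plau and Plat did not, with log2 changes of 0.67, 0.51, 0.33 and 0.21 (limma adjusted p = 0.147, 0.139, 0.220 and 0.333). The median log2 change of the 8 genes was 1.36, against 0.96 over all 576 tested features and 1.05 over the 456 that rose. Bulk tissue was sequenced, so more cells that express a gene and more RNA per cell cannot be told apart.

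**Figure D1:**
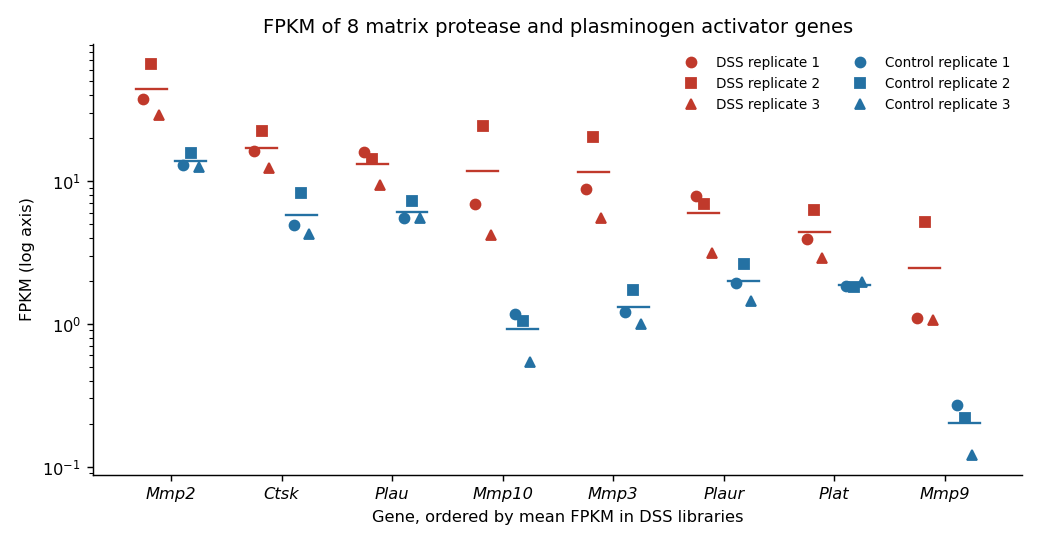
FPKM on a log axis of the 8 genes in the 3 DSS libraries (red, left) and the 3 Control libraries (blue, right), with a symbol for each replicate number and a line at each group mean. The groups do not overlap for any of the 8 genes, DSS replicate 3 is the lowest DSS library for all of them, and DSS replicate 2 is the highest for 6.

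The stromelysins had the largest log2 changes of the 8 genes. Mmp10 encodes stromelysin 2, which cuts proteoglycans and non-fibrillar matrix proteins and can activate other metalloproteinases. It stood at 6.89, 24.2 and 4.18 FPKM in the DSS libraries, against 1.17, 1.05 and 0.54 FPKM in the Control libraries. Its mean was 11.7 ± 10.8 FPKM in DSS and 0.920 ± 0.335 FPKM in Control (SD, n = 3 each), 12.8-fold higher, and the log2 change was 2.41 (SE 0.51, limma adjusted p = 0.00422). The lowest DSS library was 3.57 times the highest Control library, although the 3 DSS libraries themselves spanned 5.78-fold. Mmp3, the gene of stromelysin 1, was at 8.86, 20.2 and 5.48 FPKM in DSS and at 1.20, 1.73 and 0.99 FPKM in Control. Its mean was 11.5 ± 7.73 FPKM in DSS and 1.31 ± 0.381 FPKM in Control (SD, n = 3 each), 8.82-fold higher, for a log2 change of 2.28 with an SE of 0.40 (limma adjusted p = 0.00328). The Control values of both genes rest on few reads, about 15.1 to 51.9 fragments per library. Among the 456 features that rose, Mmp10 ranked 38 and Mmp3 ranked 45 by log2 change.

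Mmp3 (ENSMUSG00000043613, chromosome 9, 7445822 to 7455975) and Mmp10 (ENSMUSG00000047562, chromosome 9, 7502352 to 7510240; mm10, plus strand) lie in the metalloproteinase cluster of chromosome 9. Of 9 metalloproteinase genes looked up there, which left out Mmp1a, 5 were listed for DSS and Control: Mmp12, Mmp3, Mmp10, Mmp27 and Mmp7. Mmp12, Mmp27 and Mmp7 stayed below the low-value filter. Mmp7, the gene of matrilysin, was at 0.12, 3.04 and 1.03 FPKM in DSS and listed at 0, 0 and 0.12 FPKM in Control. The open reading frames of Mmp3 and Mmp10 are 78.8% identical, and 8.39% of the 50-base windows of the Mmp3 transcript also occur in other genes (8.37% for Mmp10, all of them in Mmp3). A small part of the reads could thus be split between the pair. The other 6 genes shared no such window with any other gene, and no annotated gene overlaps any of the 8.

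The ratio of Mmp10 to Mmp3 FPKM was 0.778, 1.19 and 0.763 in the DSS libraries, against 0.975, 0.607 and 0.545 in the Control libraries. These ratios overlap, so a change in the balance of the stromelysins was not detectable here.

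Promoter sequence was at hand for 4 of the 8 genes (Mmp3, Mmp10, Plaur and Ctsk; RefSeq, GRCm38.p6). The windows of Mmp3, Mmp10 and Plaur, 250 bases before to 50 bases after the annotated start, hold a match to the letters TGANTCA of the AP-1 site, which Fos and Jun proteins bind. That of Ctsk holds no match. The 3 sequences are shown because they share this match, though Mmp3 and Mmp10 are proteases and Plaur is a receptor. The 100 bases before each start read as follows, 5′ to 3′, with the AP-1 match and any TATAAA match in capitals.
Mmp3, chr9:7445722-7445821, plus strand: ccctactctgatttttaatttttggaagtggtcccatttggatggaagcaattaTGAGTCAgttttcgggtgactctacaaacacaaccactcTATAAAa
Mmp10, chr9:7502242-7502341, plus strand: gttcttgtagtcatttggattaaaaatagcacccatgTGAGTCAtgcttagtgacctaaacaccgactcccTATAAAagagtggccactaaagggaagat
Plaur, chr7:24462383-24462482, plus strand: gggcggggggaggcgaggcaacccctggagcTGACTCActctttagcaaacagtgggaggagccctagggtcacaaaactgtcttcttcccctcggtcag

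Counted from the annotated start, the AP-1 match began at base -46 in Mmp3, -63 in Mmp10 and -69 in Plaur. Both strands were searched, and 7.81% of 32851 promoter windows of the same length hold at least 1 such match. TATAAA, the core of the TATA box, was matched in Mmp3 and Mmp10, as in 13.6% of all windows, and overlapped no AP-1 match. It began at base -29 in Mmp10 but at -7 in Mmp3, so the matches do not sit alike relative to the annotated starts. A 10-letter NF-kB motif was matched in none of the 4 windows and in 1.47% of all windows. These are matches of letters in a short window, and binding was not measured.

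The gelatinases differed in level and in spread. Mmp2 (ENSMUSG00000031740, chromosome 8, 92827291 to 92853420) encodes gelatinase A, an enzyme of connective tissue cells that cuts denatured collagen and basement membrane collagen. It was the most abundant of the 8 genes in every library, with 37.4, 66.6 and 28.8 FPKM in DSS and 13.1, 15.9 and 12.6 FPKM in Control. The means were 44.3 ± 19.8 FPKM in DSS and 13.8 ± 1.77 FPKM in Control (SD, n = 3 each), 3.20-fold higher, for a log2 change of 1.53 with an SE of 0.36 (limma adjusted p = 0.00526). All 3 DSS libraries were above Control, and DSS replicate 2 stood apart from the others.

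Mmp9 (ENSMUSG00000017737, chromosome 2, 164940780 to 164955850) encodes gelatinase B, which has similar substrates and is stored in neutrophil granules. It was the least abundant of the 8 genes, with 1.10, 5.18 and 1.06 FPKM in DSS and 0.27, 0.22 and 0.12 FPKM in Control. The means were 2.45 ± 2.37 FPKM in DSS and 0.203 ± 0.0764 FPKM in Control (SD, n = 3 each), 12.0-fold higher. The log2 change was 1.32 (SE 0.38, limma adjusted p = 0.00962). The added 1 FPKM holds this value down, and with 0.1 in its place the change was 2.71. DSS replicate 2 was 4.89 times the lowest DSS library, and without it the log2 change was 0.79 (limma adjusted p = 0.00459). The Control values rest on about 6.89 to 13.7 fragments per library. The ratio of Mmp9 to Mmp2 FPKM was 0.0294, 0.0778 and 0.0368 in DSS, against 0.0207, 0.0139 and 0.00954 in Control, without overlap between the groups. An exact two-sided permutation test of 3 libraries against 3 cannot go below p = 0.1, so no such ratio can pass 0.05 on its own.

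The summed neutrophil markers followed the order of DSS libraries seen for Mmp9 and in all for 6 of the 8 genes. This is not particular to neutrophil markers. Outside the 8 genes, DSS replicate 2 was highest in 64.3% and DSS replicate 3 lowest in 64.7% of 448 features that rose. Of 16 neutrophil markers 6 were listed. Their summed FPKM was 13.9, 53.7 and 7.48 in the DSS libraries, against 2.07, 1.70 and 1.82 in the Control libraries. Cxcr2, the chemokine receptor of neutrophils, was listed at 0 FPKM in Control replicates 1 and 2, and the other 5 had values above 0 in all 6 libraries. The 3 markers that passed the low-value filter rose: Csf3r (log2 change 1.53), S100a8 (2.26) and Retnlg (2.26). None of these 3 had a Control library at 1 FPKM, so they met the filter without Control and had to differ. Their part in the change of Mmp9 was not tested.

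Ctsk (ENSMUSG00000028111, chromosome 3, 95499256 to 95509362) encodes cathepsin K, a lysosomal cysteine protease that cuts fibrillar collagen and is best known from osteoclasts. It was at 16.1, 22.5 and 12.3 FPKM in DSS and at 4.92, 8.22 and 4.28 FPKM in Control. The means were 16.96 ± 5.14 FPKM in DSS and 5.81 ± 2.11 FPKM in Control (SD, n = 3 each), 2.92-fold higher, for a log2 change of 1.40 with an SE of 0.33 (limma adjusted p = 0.00502). Ctsk was the one gene whose relative spread was smaller in DSS (coefficient of variation 30.3%) than in Control (36.4%). None of 9 osteoclast and bone markers was among the listed features. Of the other cathepsins, legumain and serine proteases, 3 of 33 were listed. Lgmn, the lysosomal asparaginyl endopeptidase legumain, rose, with 73.5 ± 10.2 FPKM in DSS and 32.2 ± 4.04 FPKM in Control (SD, n = 3 each; log2 change 1.16). Mcpt4, a mast cell chymase, rose as well (0.81) but had no Control library at 1 FPKM, and Prss22 stayed below the filter.

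The plasminogen activator genes had the smallest log2 changes of the 8 genes with all libraries. Plau (ENSMUSG00000021822, chromosome 14, 20836660 to 20843385) encodes urokinase, the activator that acts at cell surfaces. It was at 16.1, 14.2 and 9.33 FPKM in DSS and at 5.55, 7.30 and 5.47 FPKM in Control, a gap of 1.28-fold between the nearest libraries. The means were 13.2 ± 3.47 FPKM in DSS and 6.11 ± 1.03 FPKM in Control (SD, n = 3 each), 2.16-fold higher, for a log2 change of 0.98 with an SE of 0.28 (limma adjusted p = 0.00948). Plaur (ENSMUSG00000046223, chromosome 7, 24462484 to 24475968) encodes the membrane-anchored urokinase receptor. It was at 7.83, 6.89 and 3.13 FPKM in DSS and at 1.94, 2.64 and 1.44 FPKM in Control. The means were 5.95 ± 2.49 FPKM in DSS and 2.01 ± 0.603 FPKM in Control (SD, n = 3 each), 2.97-fold higher, for a log2 change of 1.15 with an SE of 0.31 (limma adjusted p = 0.00785). Its groups came nearest to each other, DSS replicate 3 lying 1.19-fold above Control replicate 2.

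Plat (ENSMUSG00000031538, chromosome 8, 22757727 to 22782844) encodes tissue plasminogen activator, the fibrin-bound activator released by endothelium and other cells. It was at 3.94, 6.32 and 2.91 FPKM in DSS and at 1.85, 1.81 and 1.95 FPKM in Control. The means were 4.39 ± 1.75 FPKM in DSS and 1.87 ± 0.0721 FPKM in Control (SD, n = 3 each), 2.35-fold higher, for a log2 change of 0.86 with an SE of 0.25 (limma adjusted p = 0.00967). Plat had the tightest Control values of the 8 genes, with a coefficient of variation of 3.86%. Of 14 endothelial markers 4 were listed, with a summed FPKM of 22.5, 20.8 and 14.8 in DSS and 5.28, 7.00 and 5.44 in Control, and Sele was at 0 in Control replicates 1 and 3. Their part in the change of Plat was not tested. Of 22 other genes of plasminogen activation and clotting, F5 alone was listed for DSS and Control, below the filter.

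The ratio of Plau to Plaur FPKM was 2.05, 2.06 and 2.98 in DSS and 2.86, 2.77 and 3.80 in Control, with overlap. The ratio of Plau to Plat was 4.08, 2.24 and 3.21 in DSS and 3.00, 4.03 and 2.81 in Control, also with overlap. Shifts in the balance of ligand and receptor, or of the activators, were thus not detectable beyond the spread.

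**Figure D2:**
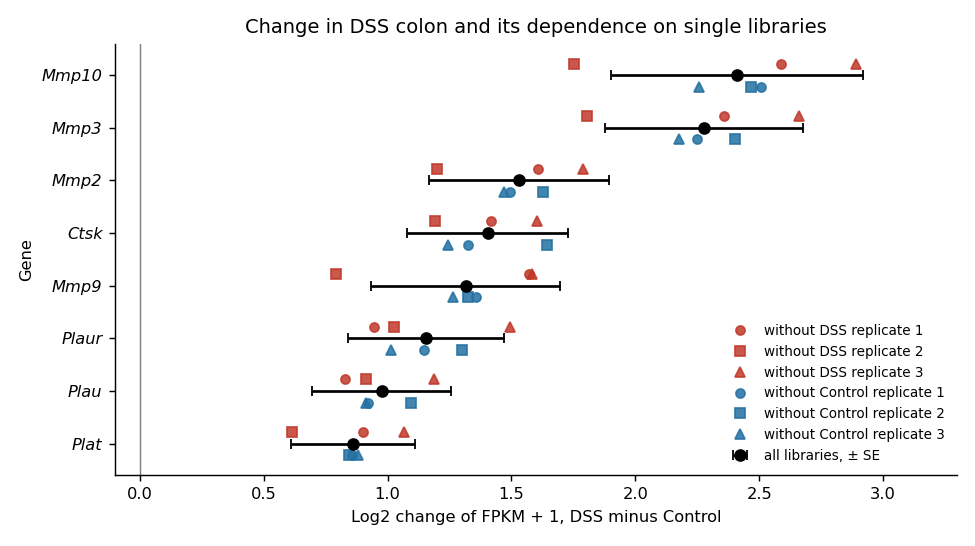
Log2 change of FPKM + 1, DSS minus Control, for the 8 genes with all libraries (black, ± SE of limma) and without each DSS library (red) or Control library (blue). Every value lies above 0, and leaving out DSS replicate 2 lowers Mmp9 to 0.79, Mmp10 to 1.75 and Mmp3 to 1.81.

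The make-up of the set differed between the groups. The 8 genes summed to 98.2, 166.0 and 67.2 FPKM in DSS and to 29.95, 38.8 and 27.4 FPKM in Control. Mmp3 and Mmp10 together made up 16.0, 26.7 and 14.4% of that sum in DSS, against 7.91, 7.16 and 5.59% in Control, without overlap. Plau, Plaur and Plat made up 28.3, 16.5 and 22.9% in DSS, against 31.2, 30.3 and 32.4% in Control, also without overlap. The mean share of the plasminogen activator genes was 22.6 ± 5.92% in DSS and 31.3 ± 1.05% in Control (SD, n = 3 each), and their difference of -8.71 percentage points was -5.68 without DSS replicate 2. Mmp2 and Mmp9 held 39.2, 43.2 and 44.5% in DSS and 44.5, 41.4 and 46.4% in Control, with overlap. Shares of 1 sum are tied to each other, and these groupings were made after the values were seen.

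In order of mean FPKM in DSS, the genes ran Mmp2, Ctsk, Plau, Mmp10, Mmp3, Plaur, Plat and Mmp9. Of these neighbours, the libraries of Mmp2 and Ctsk alone did not overlap. In Control the order was Mmp2, Plau, Ctsk, Plaur, Plat, Mmp3, Mmp10 and Mmp9. There Mmp2 and Plau, Ctsk and Plaur, Plat and Mmp3, and Mmp10 and Mmp9 were separated without overlap, and the other neighbours were not. Both stromelysins lay below Plaur and Plat in Control and above them by mean in DSS.

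The DSS libraries differed in how far these genes rose. DSS replicate 3 was the lowest DSS library for all 8 genes, as it was for 64.7% of the other 448 features that rose. DSS replicate 2 was the highest for 6 genes, and DSS replicate 1 for Plau and Plaur. Among the other features that rose, DSS replicate 2 was highest in 64.3% and DSS replicate 1 in 28.6%. Control replicate 3 was the lowest Control library for 7 genes, all but Plat, as in 49.1% of the other features that rose.

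**Figure D3:**
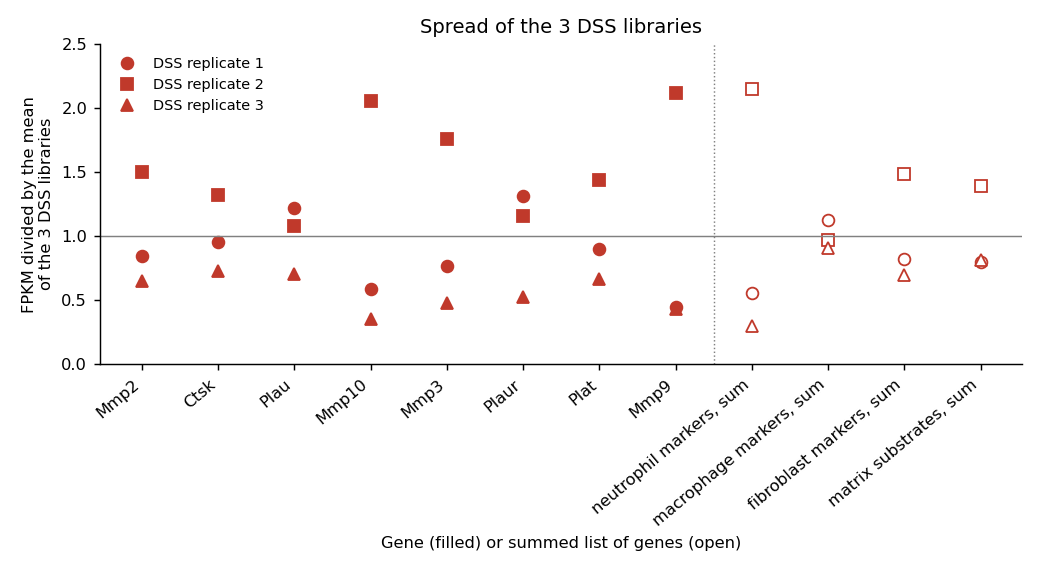
FPKM of each DSS library divided by the mean of the 3 DSS libraries, for the 8 genes (filled) and for the summed FPKM of 4 lists of genes (open). Plau and Plaur are highest in DSS replicate 1, like the macrophage marker sum, and the other 6 genes are highest in DSS replicate 2, like the neutrophil, fibroblast and matrix substrate sums.

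Marker lists of 3 cell types also varied among the DSS libraries. The 7 listed macrophage and monocyte markers, of 19, summed to 59.6, 51.7 and 48.1 FPKM in DSS and to 19.2, 24.6 and 17.8 FPKM in Control. That sum was highest in DSS replicate 1, like Plau and Plaur, with Cd68 as its largest part, while 3 of the 7 markers were highest in DSS replicate 2. The 7 listed fibroblast markers, of 16, summed to 226, 411 and 192 FPKM in DSS and to 65.2, 83.2 and 70.8 FPKM in Control. All 7 were highest in DSS replicate 2, like Mmp2, Mmp3, Mmp10, Ctsk and Plat. No listed marker of either list was at 0 in any library. Of the tested members, 5 of 6 macrophage markers and 6 of 6 fibroblast markers rose, beside 79.2% of all tested features. The macrophage marker that did not pass, Chil3, reached 1 FPKM in DSS replicate 2 (1.22 FPKM) but in no other DSS or Control library. It thus met the filter only with the help of decoction libraries. The 6 listed markers of epithelium, of 16, summed to 457, 320.3 and 648 FPKM in DSS and to 786, 985 and 1112 FPKM in Control, the lowest being DSS replicate 2. Car4, Slc26a3 and Ascl2 fell and Plet1, Anxa8 and Cldn1 rose, 3 of the 6 in each direction. Car4 was the largest part of the sum in every library but DSS replicate 2. There Anxa8 was the largest part, at 157.4 FPKM against 72.85 FPKM for Car4. Car4 and Slc26a3, surface colonocyte genes that mark the labelled tissue, had values above 0 in every library. The part of these cell types in the changes of the proteases was not tested.

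Deviations from the group means, over the 6 DSS and Control libraries, are given as a description. Plau and Plaur had a Pearson r of 0.98 with each other, of 0.28 and 0.38 with Mmp9, the lowest of all pairs, and of 0.64 and 0.70 with Mmp3. Mmp2 and Mmp3 had an r of 0.998, and Mmp3 and Mmp10 of 0.97. Ctsk lay between, with an r of 0.85 with both Mmp2 and Mmp3, 0.77 with Plaur, 0.76 with Plau, 0.75 with Mmp10, 0.65 with Mmp9 and 0.64 with Plat. The points share libraries, and 7 of the 8 genes varied more in DSS than in Control relative to the mean. Of 568 other tested features, those most like Mmp3 were Sh3pxd2b (r = 0.9995) and Plxnd1 (0.995), and those most like Mmp2 were Sh3pxd2b (0.999) and Inhba (0.998). Trpa1 (0.997) and Lrg1 (0.995) were most like Mmp9, and Lamb1 (0.995) and Kcne4 (0.992) most like Mmp10. Ctsk was most like Cpxm1 (0.986) and Bst1 (0.983), and Plat most like Serpina3m (0.996) and Ifitm1 (0.996). For Plau they were Ms4a14 (0.976) and Ccr7 (0.972), and for Plaur Lrrc25 (0.986) and Colec12 (0.983). Such values were common over 6 libraries: 59 features exceeded 0.95 with Mmp2 and 8 with Ctsk.

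Further metalloproteinases rose as well. Of 43 further genes of the MMP, ADAM, ADAMTS and astacin families, 17 were listed for DSS and Control. The 8 that were tested were all higher in DSS, beside 79.2% of all tested features. The median log2 change of these tested genes was 0.94, against 1.36 for the 8 genes described and 0.96 for all tested features. Members and lists were chosen with earlier results known, so this gap may come from the choice. Adam12 (mean 1.14 FPKM in DSS and 0.07 in Control) and Mmp7 (1.40 and 0.04) stayed below the filter and are not in that median. Mmp11, stromelysin 3, had 4.19 ± 0.592 FPKM in DSS and 1.74 ± 0.140 FPKM in Control (SD, n = 3 each; log2 change 0.92). Adamts2 (1.03) and Bmp1 (0.92) trim the ends of procollagens, and Bmp1 was nearly invariant in Control, with 2.77 ± 0.0252 FPKM, against 6.23 ± 1.38 FPKM in DSS (SD, n = 3 each, as in the values below). Adam8, a leukocyte sheddase, also rose (0.96), again with no Control library at 1 FPKM.

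Genes of protease inhibitor families rose alongside. Of 28 genes of such families 9 were listed and tested, of which 8 rose and Wfdc2 fell by 1.26 on the log2 scale. Serpinf1 and Serpinh1 are among those that rose and are serpins by family, not protease inhibitors by activity. Of all 576 tested features, 79.2% were higher and 20.0% lower in DSS. The median log2 change of the 9 genes was 1.53. Slpi, an inhibitor of neutrophil elastase, had 49.96 ± 11.2 FPKM in DSS and 6.52 ± 1.45 FPKM in Control (2.76). Serpina3n, a serpin of the antichymotrypsin family, had 112.7 ± 50.4 FPKM in DSS and 24.997 ± 3.59 FPKM in Control (2.04). Wfdc17 (1.53) and Serpinf1 (1.05) rose as well. Timp1, the secreted inhibitor of most metalloproteinases, was at 3.65, 16.5 and 5.35 FPKM in DSS and at 1.49, 1.01 and 1.60 FPKM in Control (log2 change 1.77). It was named for its role, outside the rule, after its values were seen. The ratio of Mmp3 to Timp1 FPKM was 2.43, 1.22 and 1.02 in DSS and 0.805, 1.71 and 0.619 in Control, and that of the summed Mmp2, Mmp3, Mmp9 and Mmp10 to Timp1 was 14.9, 7.03 and 7.39 in DSS and 10.5, 18.7 and 8.89 in Control. Both ratios overlap between the groups.

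**Figure D4:**
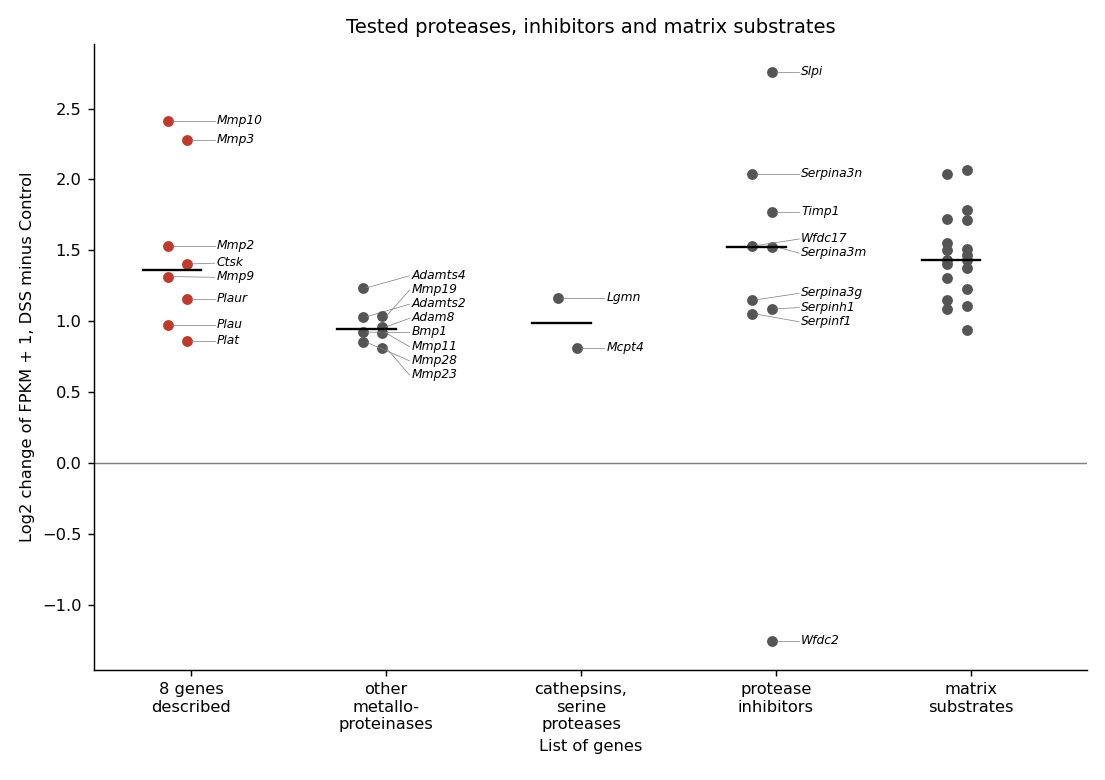
Log2 change of FPKM + 1, DSS minus Control, of the tested genes in 5 lists, with a point for each gene and a line at the median of each list. Mmp10 and Mmp3 stand above all 8 tested further metalloproteinases, and Wfdc2 is the single gene below 0. Members and lists were chosen with earlier results of these data known, and listed genes below the filter, such as Adam12 and Mmp7, are not drawn.

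Genes on the matrix substrate list rose too. All 19 listed genes of 27 on that list were higher in DSS, with a median log2 change of 1.43. Among them were Col18a1 (2.07), Lox (2.04), Col1a2 (1.72) and Bgn (1.50). Lox encodes an enzyme that crosslinks the matrix and not a structural protein. All 19 were highest in DSS replicate 2. Their shared peak in that library is to be read against 64.3% of the 448 risen features outside the 8 genes, which peaked there too. Their calls stand beside 79.2% of all tested features higher in DSS, on a list of features that differ between these groups. Their summed FPKM was 995, 1732 and 1019 in DSS and 388, 479 and 397 in Control. Of 26 genes that encode known inducers of these proteases or their receptors and transcription factors, 4 were listed and the 3 tested rose: Tnf (1.10), the oncostatin M receptor Osmr (0.86) and Il1b (2.39). Il1b had no Control library at 1 FPKM and met the filter through DSS alone. Il1b was at 7.14, 32.5 and 1.07 FPKM in DSS and at 0.80, 0.28 and 0.71 FPKM in Control. Its DSS libraries, like those of Tnf and Osmr, had the order seen for 6 of the 8 genes. DSS replicate 3 was the lowest in 64.7% of the 448 features that rose outside the 8 genes.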

How the data were processed

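Libraries were made from 1 µg of total colon RNA with a NEBNext Ultra kit, per the labels' protocols. The submitters' processing notes list bcl2fastq, FastQC, fastp and the build mm10. Not given in the sources used here are the aligner, counting program, strand use, annotation and the rule that selected the features. The authors deposited FPKM, per the file headers, rounded to 2 decimals and for listed features only. They are scaled to the library total and not corrected for composition. Symbols, coordinates and exon lengths came from GENCODE M21 (GRCm38), which matched 981 of 991 features. Fragment totals were estimated as the total at which FPKM times exon length of genes under 1200 bases gave whole fragments within 0.2, true of 72.5 to 93.3% of 118 to 120 genes. They assume the authors used that length, and for Control replicate 1 a total of 28800000 fragments gave 95.8%, so its depth is less certain.

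Values were fitted as log2(FPKM + 1) in limma 3.58.1 (R 4.3.3) with a mean-dependent trend, 1 mean per group over all 12 libraries and no replicate block. The fit was tested on simulated data in which only a part of the features changed. In the real list 99.1% of tested features differed, so that test does not bear on the calls here. No library pair of a group shared more than 25 of 912 values. Every member was named. Of each other list up to 4 genes with the smallest adjusted p were named, and the 2 features most like each member by Pearson r. Any other gene fills out a small count or was picked with its values known. Members and lists were chosen with earlier results of these data known. Coding sequences were aligned as longest open reading frames with Biopython 1.88. Alternatives were other pseudocounts, filters, trends, centring, a block and left-out libraries. Since the values are FPKM, no count model was used.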

Additional observations from a re-analysis of the deposited data

Results flagged for a closer look

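Mmp8, the neutrophil collagenase of the same gene cluster as Mmp3 and Mmp10, is listed for the high-dose decoction libraries and not for DSS and Control. It was at 1.22, 9.25 and 21.71 FPKM in BXD_H replicates 1, 2 and 3, with no control values to set beside it. The depth of these libraries was not estimated. At the same assumed depth for each, meant as a lower bound, replicate 3 would hold at least 263 fragments, above a floor set at 3 fragments. Not being listed for DSS and Control does not mean a count of 0 there. F10, the gene of coagulation factor X, is likewise listed for the high dose alone. It was at 0.38, 0.83 and 2.83 FPKM in BXD_H replicates 1, 2 and 3, or at least 38.6 fragments in replicate 3 at that assumed depth. Neither was compared with DSS or Control.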

How the results depend on the processing

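Of 124 combinations of a gene and an alternative, 120 kept the direction and stayed past the threshold, 4 kept the direction but no longer passed, and 0 reversed. Those 4 were Mmp9, Plaur, Plau and Plat under centring on the median of the listed features. Centring left 4 of the 8 genes (Mmp10 1.76, Mmp3 1.63, Mmp2 0.88 and Ctsk 0.76) and 113 of all features higher. A filter of 5 FPKM left 4 of the 8 genes tested and called, with 196 features higher and 68 lower among fewer tested features, and no filter gave 708 higher.

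Leaving out single libraries kept all 8 genes past the threshold, and the calls ranged from 440 to 453 higher and from 88 to 111 lower. All 8 also passed in the fit with a replicate block, which gave 457 features higher and 113 lower. The block pairs samples that share only a number: same-numbered DSS and Control libraries had correlations of -0.05, 0.02 and 0.08 in their deviations. Shares of the 8-gene sum kept their direction without each library in turn, an alternative chosen after seeing the data. Depth limits Mmp9, Mmp3 and Mmp10 in Control most.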
